A study of Capra hircus with 4 samples.

Results

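The genes described are 10 regulators that mark or maintain the stem cells of the hair follicle bulge: the transcription factors LHX2, TBX1, BARX2, SOX9, TCF7L1, TCF7L2, NFATC1 and RUNX1, and the cell surface proteins LGR5 and LRIG1. They were taken by symbol, and all 10 were found among the 20326 genes of each deposited table. The cells, secondary hair follicle stem cells, came from the follicles that grow the fine undercoat of the cashmere goat (Capra hircus), and were isolated from dorsal skin and cultured before RNA was taken. Early anagen was sampled in April and mid anagen in October, anagen being the growth phase of the hair cycle. Each phase has 1 library from a female and 1 from a male goat. Phase and month of sampling coincide, so a difference between the phases cannot be told apart from one between the months or the collections. Values of a month are given below with the female library before the male. No genotype, treatment or age is given in the labels, and culture is common to all 4 libraries, so the values describe cells after growth in a dish and not the bulge in the skin. The labels call the libraries of a phase biological replicates, and since these differ in sex, the spread within a phase contains any difference between the sexes.

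The bulge is the part of the outer root sheath that holds the follicle's long-lived epithelial stem cells. Its cells are kept quiet for much of the hair cycle by BMP signals and by the absence of WNT signals, and they are roused at the onset of growth to rebuild the lower follicle. LHX2, SOX9, TBX1 and the TCF factors are known for maintaining stem cell identity, NFATC1 for holding the cells at rest, RUNX1 for promoting their activation, and LGR5 and LRIG1 as receptors or receptor partners that label stem cells at different heights of the follicle.

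The deposited values carry no stated unit. They were treated as abundances normalised for gene length, as kallisto gives them, and the order of the genes by level and the shares within families rest on that reading. The number of reads behind them is unknown, and no counting interval can be given. Library totals lay between 844960 and 1186966, higher in both early libraries, and 12040 to 12458 genes per library reached a value of 1. KRT14, a keratin of basal epithelium, was abundant in every library, between 8956 and 23511. CD34, a bulge marker of the mouse, was listed at 0 in both April libraries and at 0.136 and 0.0136 in October. The keratin 15 gene, a bulge keratin carried here without a symbol as LOC102179515, had values of 414 and 88.4 in April and of 182 and 241 in October. The cells therefore had abundant KRT14, keratin 15 at lower values that varied between libraries, and next to no CD34 transcript. Of a list of 28 bulge marker genes, 26 were found by symbol. Of these, 16 reached a value of 1 in 2 or more libraries, and 8, CD34 among them, stayed under 1 in every library.

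SOX9 was the most abundant of the 10 regulators in both phases and LGR5 the least. At early anagen the order by mean value was SOX9, RUNX1, TCF7L2, LRIG1, LHX2, BARX2, TBX1, NFATC1, TCF7L1 and LGR5, from 91.9 ± 13.4 (SD, n = 2) for SOX9 down to 0.676 ± 0.459 (SD, n = 2) for LGR5. Neighbours in that order overlapped between libraries for RUNX1 with TCF7L2 and for each step from LHX2 to TCF7L1. At mid anagen the order was SOX9, TCF7L2, LHX2, RUNX1, LRIG1, BARX2, TBX1, TCF7L1, NFATC1 and LGR5, from 161 ± 15.0 (SD, n = 2) down to 3.69 ± 1.12 (SD, n = 2). There the neighbours that overlapped were LHX2 with RUNX1, each step from LRIG1 to TCF7L1, and NFATC1 with LGR5. LHX2 moved from position 5 to position 3, and TCF7L1 from 9 to 8.

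**Figure D1:**
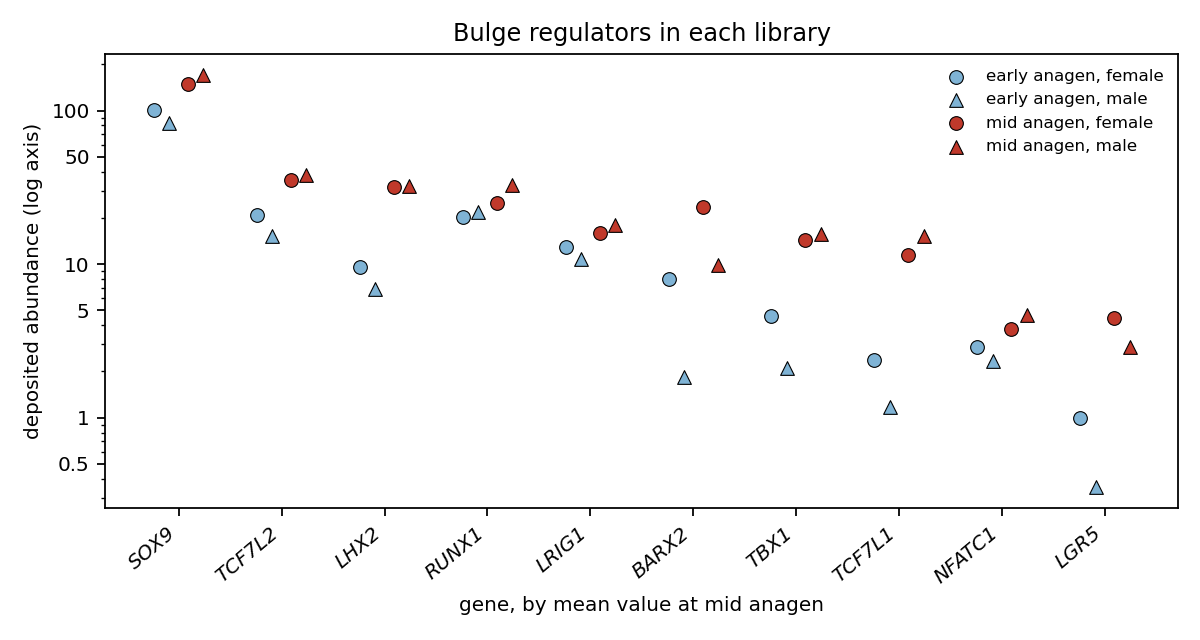
Deposited abundance of each regulator (log axis) in the 4 libraries, with blue points for early and red for mid anagen, circles for female and triangles for male. Both red points lie above both blue points for each of the 10 genes, from SOX9 at 82.5 to 171 down to LGR5 at 0.352 to 4.48.

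LHX2, a LIM homeodomain factor that keeps bulge cells in the stem cell state, was the one regulator that rose by the test across all genes. Its value was 9.54 (female) and 6.94 (male) in April and 31.7 (female) and 32.1 (male) in October. The mid libraries were nearly equal to each other and above 3 times either early value, at 3.32-fold between the female libraries (the female pair) and 4.62-fold between the male libraries (the male pair). The fitted difference on the log2(value + 1) scale was 1.85 (SE 0.18, 95% interval 1.39 to 2.30, limma adjusted p = 0.0431). Among all genes of a library ordered by value, LHX2 stood at position 8437 and 9082 in April and at 4193 and 4163 in October. Of the LIM homeobox genes listed with it (LHX1, LHX4, LHX6, LHX8 and LHX9), none reached 0.2 in any library, so LHX2 made up 97.1% to 99.6% of their summed abundance.

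LIM homeodomain factors work through the adaptor LDB1 and the SSBP proteins that stabilise it. LDB1 was at 79.9 and 63.1 in April and at 94.1 and 89.7 in October, a difference of 0.37 (95% interval -0.08 to 0.81, limma adjusted p = 0.238). SSBP4 was at 6.48 and 3.51 early and at 21.6 and 18.8 in October (difference 1.87, SE 0.27, limma adjusted p = 0.0639). SSBP3 and the LIM-only protein LMO1 were also higher in both mid libraries without passing, and LDB2, the second adaptor, stayed between 0.829 and 1.34. LDB1 was thus the more abundant adaptor in every library, and the partner with the largest difference was SSBP4.

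TBX1, a T-box factor known for the self-renewal of bulge cells, had values of 4.61 and 2.10 in April and of 14.3 and 15.8 in October. The groups did not overlap, and the difference of 1.94 (SE 0.30, 95% interval 1.19 to 2.70) did not pass over all genes (limma adjusted p = 0.0700). The deposited tables give TBX1 no description beside its symbol. BARX2, a homeobox factor of the follicle epithelium, was at 8.003 and 1.85 in April and at 23.7 and 9.92 in October. On the log2(value + 1) scale it varied most of the 10 between the libraries of a phase, and the female value was the higher in each phase. The early female and mid male values were close. Its difference of 1.70 had a 95% interval of 0.12 to 3.28 (limma adjusted p = 0.161).

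TCF7L1 and TCF7L2 bind the same DNA motif, which lies in WNT target genes; TCF7L1 acts mainly as a repressor, and TCF7L2 can activate when beta-catenin is bound. TCF7L1 was at 2.39 and 1.17 in April and at 11.5 and 15.3 in October. This was the largest difference among the 10 regulators, 4.80-fold for the female and 13.1-fold for the male pair. On the log2(value + 1) scale it was 2.40 (SE 0.27, 95% interval 1.71 to 3.08), and it did not pass (limma adjusted p = 0.0551). TCF7L2 was at 21.0 and 15.3 early and at 35.2 and 37.8 in October, with a difference of 0.98 (SE 0.19, 95% interval 0.51 to 1.46, limma adjusted p = 0.0746). TCF7L2 remained the more abundant of the pair in every library.

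The plain ratio of TCF7L1 to TCF7L2 does not depend on how a library was scaled. It was 0.114 and 0.0763 in April and 0.326 and 0.405 in October, so that both mid values were above both early values. The difference in log2 ratio was computed with 1 added to each value, which makes it depend on the scaling. It was 1.41, with p = 0.333 in an exact two-sided permutation test, the smallest p that 2 libraries against 2 can give. Of the other TCF/LEF factors, TCF7 was at 6.64 and 3.78 early and 9.11 and 7.82 in October (limma adjusted p = 0.182), and LEF1, the factor of differentiating hair cells, was under 0.4 in every library. TCF7L1 thereby went from 7.94% and 5.75% of the summed abundance of these 4 genes in April to 20.4% and 25.1% in October.

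CTNNB1, the beta-catenin gene, was at 209 and 221 early and at 210.1 and 249 in October, and its groups overlapped (difference 0.09, 95% interval -0.36 to 0.54, limma adjusted p = 0.773). Among co-repressors of the TLE family, TLE3 was at 27.0 and 21.3 early and 36.0 and 39.3 in October (limma adjusted p = 0.101). TLE2 was at 0.241 and 0.0294 early and 2.23 and 1.26 in October. TLE2 reached the minimum value of 1 only in the mid libraries, so it could only be higher there.

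SOX9, an HMG-box factor needed to form and keep the bulge, had values of 101 and 82.5 in April and of 150.0 and 171 in October. The groups were well apart, and the ratio of the phase means was 1.75. The difference of 0.80 (SE 0.18, 95% interval 0.34 to 1.26) did not pass over all genes (limma adjusted p = 0.0839). Ordered by value, SOX9 moved from position 1339 and 1866 in April to 752 and 646 in October. It contributed 53.8% to 62.8% of the summed abundance of 14 SOX genes in each library, with no separation of the phases in that share.

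Other SOX genes were also higher in both mid libraries. These were SOX4, at 27.9 and 18.4 early and 48.4 and 47.0 in October (limma adjusted p = 0.0783), SOX13, at 4.03 and 4.54 early and 10.1 and 9.97 in October (limma adjusted p = 0.0639), and the less abundant SOX12 and SOX21. SOX12 reached a value of 1 in the mid libraries alone, so it could only be higher there. SOX15, named after its values were seen as the second most abundant SOX gene at early anagen, was at 52.2 and 34.3 early and 57.9 and 34.8 in October. Both female values were above both male values. None of the other SOX genes passed.

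NFATC1, a calcineurin-dependent factor known for keeping bulge cells quiescent, had low values in all libraries, at 2.89 and 2.35 in April and 3.80 and 4.66 in October. The difference of 0.53 had a 95% interval of 0.05 to 1.01 (limma adjusted p = 0.155). NFATC3 was the most abundant of the NFATC genes present in the tables, at 10.3 and 9.94 early and 16.1 and 12.7 in October (limma adjusted p = 0.156), and NFATC4 was at 0.328 and 0.185 early and 1.24 in both mid libraries, the only ones where it reached 1. NFATC1 held 17.9% to 25.0% of the sum of these 3 genes, with overlapping phases. NFATC2 was not found by its symbol.

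RUNX1, which promotes the activation of follicle stem cells, was at 20.2 and 21.9 in April and at 25.1 and 32.6 in October. It had the smallest difference of the 10, 0.42, and the only 95% interval that included 0 (-0.02 to 0.87, limma adjusted p = 0.192). RUNX2 was at 44.1 and 18.0 in April and at 42.7 and 58.4 in October, so the early male library alone was low. RUNX1 was therefore the leading RUNX gene only in the early male library, with 54.9% of the family sum against 31.4% to 36.5% in the others. CBFB, the partner that RUNX factors need to bind DNA well, was at 54.6 and 53.3 early and 48.5 and 48.8 in October, slightly lower at mid anagen (difference -0.15, 95% interval -0.49 to 0.20, limma adjusted p = 0.522).

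LGR5, a receptor for R-spondins that strengthens WNT signals and marks cells of the lower bulge and hair germ, was at 1.00 (female) and 0.352 (male) in April and at 4.48 and 2.90 in October. The folds were 4.47 for the female and 8.25 for the male pair, at values so low that the depth behind them matters and is not known. The difference on the log2(value + 1) scale, which understates change at such values, was 1.49 (SE 0.29, 95% interval 0.75 to 2.23, limma adjusted p = 0.0766). LGR4, the related receptor found broadly in epithelia, was at 30.8 and 30.0 early and 31.6 and 32.3 in October, with a difference of 0.07 (95% interval -0.27 to 0.41, limma adjusted p = 0.771). LGR6 was under 1 in every library, from 0.0484 to 0.856.

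LGR5 thus took 3.14% and 1.16% of the summed abundance of the 3 LGR genes in April and 12.2% and 8.04% in October. LGR4 held the rest apart from at most 2.37% for LGR6. RNF43 and ZNRF3, the ubiquitin ligases that R-spondins and LGR receptors counter, were at 6.49 and 7.33 early and 5.64 and 5.45 in October for RNF43 (limma adjusted p = 0.310), and at 3.20 and 2.51 early and 3.31 and 3.82 in October for ZNRF3 (limma adjusted p = 0.432).

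LRIG1, a transmembrane protein that restrains ERBB receptors and marks cells above the bulge, was at 12.9 and 10.9 in April and at 15.9 and 17.9 in October. The difference of 0.47 (95% interval 0.07 to 0.88) did not pass (limma adjusted p = 0.140). LRIG2 and LRIG3 differed by 0.49 and 0.65 on the same scale, and LRIG1 took 49.5% and 47.6% of the summed abundance of the 3 LRIG genes in April and 46.7% and 45.2% in October. EGFR, a receptor that LRIG1 acts on, was at 45.1 and 40.4 early and 65.2 and 66.9 in October (limma adjusted p = 0.0851), and ERBB3 was at 22.7 and 20.1 early and 33.9 and 39.1 in October (limma adjusted p = 0.0783).

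In total, limma called 1 of the 10 regulators, LHX2, higher at mid anagen, where 0.224% of 12486 tested genes were called higher and 0.0801% lower. All 10 had both mid libraries above both early libraries, against 31.5% of tested genes, and 9 of 10 had an unadjusted p under 0.05, as did 3482 of all tested genes. The median difference over the 10 was 1.24, and 0.01 over all tested genes. The 10 lay between percentile 82.9 (RUNX1) and 99.7 (TCF7L1) of all tested genes ordered by their difference. Because the 10 were chosen with earlier results of these data known, setting them against all tested genes or other lists is a description and not a test. LGR5 is the only one that was under 1 in any library, and it met the minimum through the early female and both mid libraries.

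The call for LHX2 ended without the early female library (limma adjusted p = 0.0659) and without the early male library (adjusted p = 0.211), when 0 genes of any kind were called (2897 and 1445 had an unadjusted p under 0.05). Without the mid female library 733 genes were called, and without the mid male library 370. With each library rescaled to a common total, LHX2, TBX1, SOX9, TCF7L1, TCF7L2 and LGR5 were called higher, 6 of 10 where 4.55% of tested genes were, 87.3% of calls were upward against 73.7% as deposited, and the median of all genes moved from 0.01 to 0.32.

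**Figure D2:**
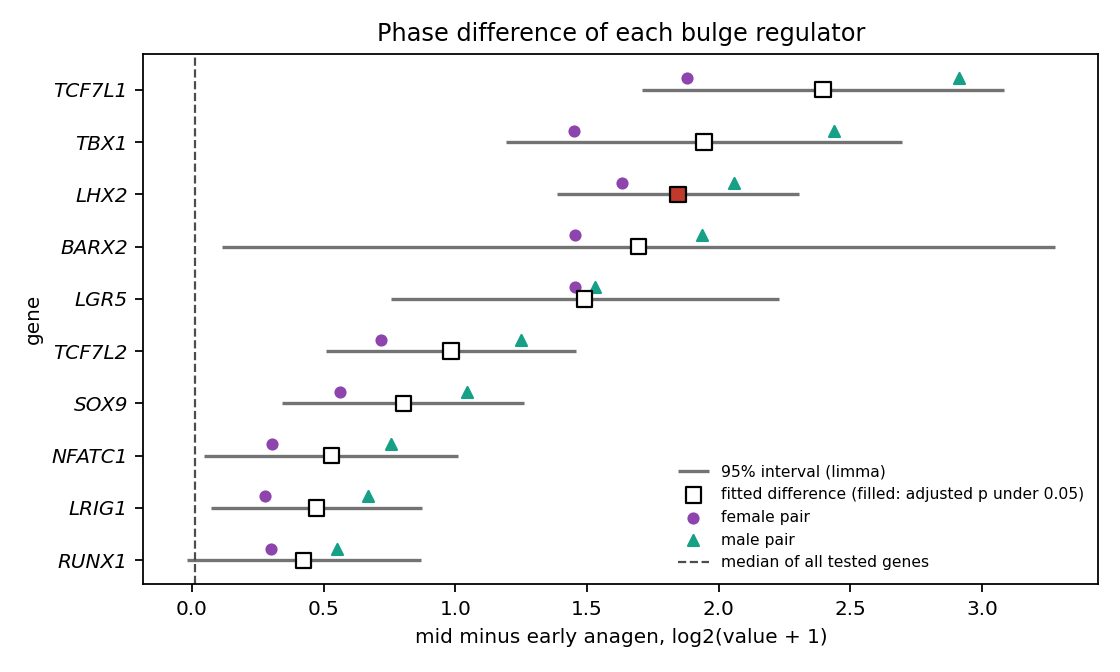
Difference between mid and early anagen for each regulator on the log2(value + 1) scale: squares are the limma estimates over 4 libraries with their 95% intervals, circles the female pair, triangles the male pair, and the dashed line the median of all tested genes (0.01). The estimates run from 0.42 for RUNX1 to 2.40 for TCF7L1, only LHX2 is filled, and each triangle lies to the right of its circle.

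The male pair differed more than the female pair for all 10 regulators. On the log2(value + 1) scale the female pair ran from 0.28 (LRIG1) to 1.88 (TCF7L1) and the male pair from 0.55 (RUNX1) to 2.91 (TCF7L1). Over all tested genes the male pair's difference was the larger in 48.3%, and among the 3928 genes with both mid libraries above both early ones in 65.5%. The early male library was below the early female library for 9 of the 10, RUNX1 being the exception, as it was for 46.8% of all tested genes and for 71.8% of those with both mid libraries above both early ones. The mid male library was above the mid female library for 8, the exceptions being BARX2 and LGR5, and for 48.4% of all tested genes. A phase-by-sex difference cannot be tested with 1 library of each kind, and sex cannot be told apart from the individual animal.

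**Figure D3:**
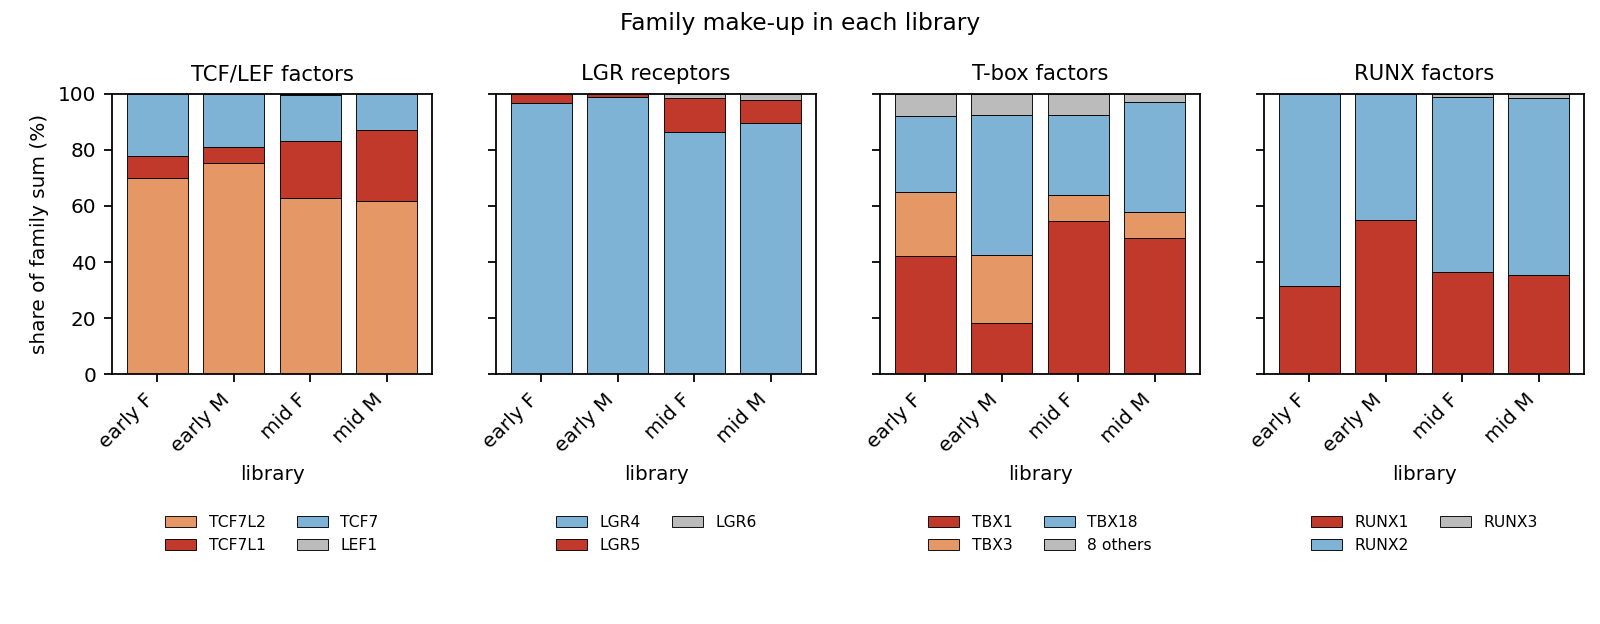
Share of each gene in the summed abundance of its family (percent, bars from 0 to 100) in the early female, early male, mid female and mid male libraries, for TCF/LEF, LGR, T-box and RUNX genes. TCF7L1 goes from 7.94% and 5.75% to 20.4% and 25.1%, and LGR5 from 3.14% and 1.16% to 12.2% and 8.04%, whereas the RUNX1 share stands out only in the early male library (54.9%).

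Shares within a family were computed after the values were seen and are given without a test. TBX1 took 42.3% and 18.4% of the summed abundance of 11 T-box genes in April, and 54.6% and 48.7% in October. The other abundant T-box genes were TBX18, at 2.96 and 5.69 early and 7.48 and 12.7 in October (limma adjusted p = 0.130), and TBX3, which lay between 2.49 and 2.97 in all libraries. TBX2 was under 0.12 in every library, and BARX1 was not found by its symbol. Shares of LHX2, TCF7L1, LGR5 and TBX1 were higher in both mid libraries than in both early libraries, those of TCF7L2 (69.9% and 75.4% early, 62.7% and 61.9% in October) and LRIG1 were lower, and those of SOX9, NFATC1 and RUNX1 overlapped.

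Of the 10 lists of other bulge genes, family members and partners, TNC was the one gene called, in the direction of mid anagen, and 0 genes were called lower. TNC encodes tenascin, a matrix glycoprotein found around the bulge, and went from 9.66 and 9.28 in April to 35.2 and 32.8 in October (limma adjusted p = 0.0323). In its list of bulge markers 16 of 28 genes were tested, 15 did not pass, 7 had both mid libraries above both early ones and 5 had both below, where 31.5% of all tested genes were above and 30.9% below. ITGB6, an integrin chain, was at 32.5 and 18.7 early and 118 and 93.9 in October (limma adjusted p = 0.0636), and SFRP1, a secreted WNT antagonist, at 10.8 and 5.63 early and 37.0 and 24.9 in October (limma adjusted p = 0.0724). In this list 5 of the 16 had an unadjusted p under 0.05, against 27.9% of all tested genes. Among those 5, FHL2 and S100A6 went down. FHL2 was at 415 and 356 early and 251 and 242 in October (limma adjusted p = 0.111). S100A6 was at 2.63 and 6.88 early and 1.68 and 1.16 in October (limma adjusted p = 0.140). The median difference of this list was 0.19, against 1.24 over the 10 regulators.

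Other transcription factors of follicle epithelium had a median of 0.30 over 19 tested of 20 genes, with 0 called and 10 above in both mid libraries, where 31.5% of all tested genes were. VDR, which binds vitamin D, was at 20.3 and 17.1 early and 47.5 and 58.6 in October (limma adjusted p = 0.0551), and STAT3 at 47.8 and 41.2 early and 86.2 and 84.3 in October (limma adjusted p = 0.0724). GLI2, a Hedgehog effector, passed the filter through the mid libraries alone. Among LIM partners, 7 of 14 genes were tested, 6 were above in both mid libraries, and the median was 0.70. The TCF and LEF partners had 8 of 11 tested genes above and a median of 0.50, the LGR and R-spondin genes 4 of 5 and 0.18, and the NFAT and calcineurin genes 6 of 10 and 0.37. The RUNX partners had 1 of 4 and 0.22, the LRIG and ERBB genes 5 of 7 and 0.49, the other SOX genes 4 of 5 and 1.07, and the other T-box genes 1 of 2 and 0.56. limma called 0 genes of each of these lists in either direction. At an unadjusted p under 0.05 were 6 of the other transcription factors, 5 LIM partners, 4 TCF and LEF partners, 4 NFAT and calcineurin genes, 5 LRIG and ERBB genes, 4 SOX genes, 1 T-box gene, and 0 of the LGR and RUNX lists, against 27.9% of all tested genes. These tallies, the counts above and the medians include GLI2, TLE2, NFATC4 and SOX12, which passed the filter through the mid libraries alone and could only be higher, as could GLI1 among the bulge markers, which was not at an unadjusted p under 0.05.

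**Figure D4:**
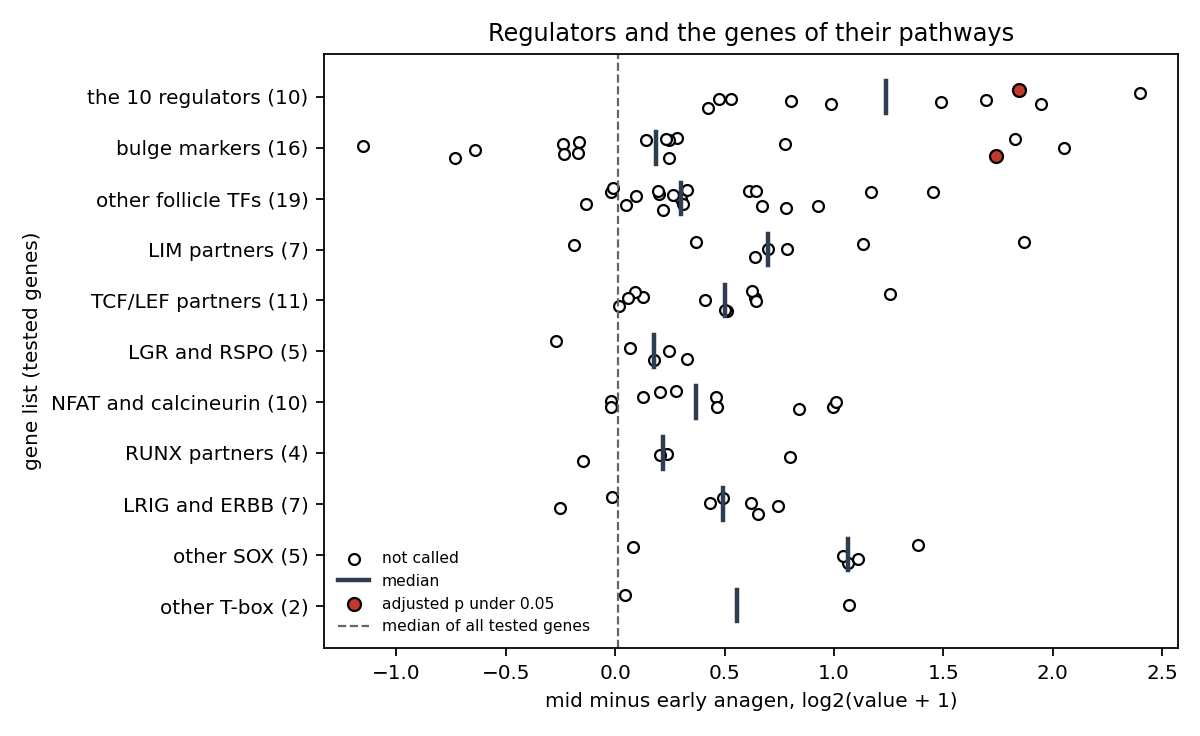
Difference between mid and early anagen on the log2(value + 1) scale for the 10 regulators and for the tested genes of 10 related lists (number tested in brackets), with list medians as bars, called genes in red and the median of all tested genes dashed. LHX2 and TNC are the red points, and list medians run from 0.18 for LGR and R-spondin genes to 1.07 for other SOX genes, below the 1.24 of the regulators.

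Markers of other cell types moved between the phases beside the regulators, and their part in the differences was not tested. In bulk RNA, fewer cells of a type and less RNA per cell cannot be told apart. The 20 dermal fibroblast and papilla genes summed to 61.6 and 106 in April and to 519.8 and 450.1 in October. FN1, fibronectin, was called higher among them, 12 of the 13 tested genes had both mid libraries above both early ones, and 10 of the 13 passed the filter through the mid libraries alone. DCN was listed at 0 in the early female and FAP at 0 in both early libraries. COL1A1, a collagen chain, was at 58.6 (female) and 19.8 (male) in October. VIM, an intermediate filament protein, was at 20.6 and 78.5 early and at 187 and 298 in October. THY1, the tested gene whose phases overlapped, was at 39.4 and 23.0 early and 16.4 and 28.8 in October. VIM and THY1 made up most of both early sums, and VIM was the largest value in both October sums.

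The 12 cell cycle genes were all lower in both mid libraries, where 30.9% of tested genes were, with sums of 1321 and 1407 early and 591 and 823 in October. The 9 basal keratinocyte genes summed to 40416 and 45711 early and 20473 and 21708 in October, and KRT14, KRT5 and ITGB4 were lower in both mid libraries. Sums of the 10 hair shaft and matrix genes in the tables were 49.3 and 44.6 early and 63.8 and 61.1 in October, and the epidermal differentiation genes ranged from 182 to 419 with overlapping phases. Sebocyte genes summed to 1226 to 1466 early and to 1178 to 1209 in October, slightly lower in both mid libraries. Melanocyte genes overlapped between the phases, at 20.6 to 31.98 early and 19.5 to 29.0 in October. Endothelial genes summed to 4.27 to 4.55 early and 11.3 to 11.8 in October through EGFL7 and ERG, the latter at 1 or more in the mid libraries alone, with CDH5 at 0 in every library, and immune genes to 7.06 to 8.50 early and 12.1 to 18.3 in October, mostly through CD14, with PTPRC and TYROBP at 0. Among all these cell type lists FN1 was the only gene limma called, and 11 of the 12 cell cycle genes had an unadjusted p under 0.05, where 27.9% of all tested genes did. So did 12 of the 13 tested dermal genes, a count whose direction the filter fixed for 10 of them.

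The genes whose profiles lay closest to a regulator were found by the root mean square difference of log2(value + 1), centred on each gene's mean, over the 4 libraries. This is a description over few points, and it says nothing of shared function. For LHX2 they were CRYAB, a small heat shock protein (difference 0.09), SDK1, a cell adhesion molecule (0.10), and FGFR1, a fibroblast growth factor receptor (0.12). CRYAB was at 12.1 and 9.57 early and 47.5 and 43.7 in October. For TCF7L1 they were TP53I11, CX3CL1 and COL5A1, a collagen chain, and for TBX1 they were CADM1, TM6SF1 and SSBP4, the last also a LIM partner. SOX9 lay closest to ITGAV, an integrin chain, GNB5 and DNMT3A, a DNA methyltransferase, and TCF7L2 to CCDC92, FAM20A and STAU2.

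The nearest genes were IZUMO1, IL33 and NUPR1 for BARX2, at 0.11 to 0.23, and CPEB4, ITM2C and KCTD1 for LGR5, at 0.05 to 0.08. NFATC1 lay closest to GLTSCR1, SMTN and LRP10, RUNX1 to CDK6, a kinase of the cell cycle, IQCE and DAAM1, and LRIG1 to FLOT2, PBXIP1 and PHF20L1, all at 0.01 to 0.02. Small differences between profiles are easier to reach for genes that vary little. Adding 1 also shrinks the changes of genes with low values, such as NFATC1 and LGR5. Among the regulators themselves NFATC1 and LRIG1 were closest (0.04) and BARX2 and RUNX1 farthest apart (1.05). LHX2 was nearest to TBX1 (0.17), and SOX9 to TCF7L2 (0.11).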

How the data were processed

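RNA was sequenced from 4 libraries, 2 per phase. The authors deposited a signal for each gene that is not a count. Its unit is not given in the sources used here, and it was treated as normalised for length. Per the submitters' processing notes, kallisto 0.46.1 and sleuth 0.30.0 were among the tools. Which build and annotation they used, and how they combined transcripts, is not given in the sources used here. Of the 20326 gene identifiers, 20294 matched RefSeq (goat assembly ARS1.2), used for neighbouring genes and gene spans.

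A gene was tested when 2 or more libraries reached a value of 1, which 12486 genes did. Mid was compared with early anagen on log2(value + 1) by limma 3.58.1 in R 4.3.3 with an intensity trend and phase as the only term, and p-values were adjusted over all tested genes by the Benjamini-Hochberg method (threshold 0.05). The fit was also run on simulated libraries with independent noise, and no result above rests on that run. The regulators and the lists were chosen with earlier results of these data known. Genes named beside the 10 are the called ones and otherwise up to 3 per list by smallest p, fixed paralogues and partners, and the 3 closest profiles among genes with a mean of at least 5. A few others, FHL2, S100A6 and THY1 among them, were named after their values were seen. The alternatives changed the pseudocount (0.1 or 5), the filter (none, or 5), the scaling (a common total) or the model, by leaving out each library, adding a replicate block, dropping the intensity trend or removing the trend with genomic span.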

Additional observations from a re-analysis of the deposited data

Results flagged for a closer look

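For 4 genes named beside the regulators, the female and the male pair moved in opposite directions between early and mid anagen on the log2(value + 1) scale, and the difference between the pairs was not tested. RUNX2 differed by -0.044 in the female pair and by 1.64 in the male pair. TBX3 differed by -0.0015 in the female and 0.087 in the male pair, both small. CD68, an immune marker, differed by 0.14 in the female and -0.43 in the male pair. LOC102179515, the keratin 15 gene, differed by -1.18 in the female and 1.44 in the male pair. All 10 regulators had the same direction in both pairs.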

How the results depend on the processing

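All 10 regulators, or the 8 that a filter of 5 left to test, were higher at mid anagen under each of the 12 alternatives, and 0 of 118 values reversed. LHX2 lost its call under 5 of 12, with adjusted p up to 0.211. Called genes, 38 as deposited, numbered 18 with a pseudocount of 0.1, 0 with no filter (limma; 3843 at an unadjusted p under 0.05), 651 with a common total and 0 to 733 when 1 library was left out. In those last fits the lone library of a phase is assumed to vary like the other group. With the replicate block, which is also the sex, 1782 genes were called (7.34% of tested genes higher), including LHX2, TBX1, BARX2, SOX9, TCF7L1, TCF7L2 and LGR5. The female-minus-male deviations of the 2 phases correlated at 0.29 across genes. The numbers are not known to pair animals. The related lists held 1 gene called higher as deposited, 15 with a common total and 21 with the replicate block. TCF7L1 was also called with a pseudocount of 5 and with a filter of 5. Without the mid female library TBX1 and TCF7L1 were called beside LHX2, and without the mid male library LGR5 as well. The difference in log2 ratio of TCF7L1 to TCF7L2 was 0.59 to 1.89 under its alternatives. NFATC1, RUNX1 and LRIG1 were called under none. Read depth is unknown, which limits LGR5, NFATC1 and the early values of TCF7L1 most.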

Other observations

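The genes next to the regulators on the chromosome, taken from the RefSeq order of protein-coding genes, had a median difference of 0.14. Of the 20 flanking genes, 16 were tested, 0 were called by limma and 4 had an unadjusted p under 0.05, as did 27.9% of all tested genes. Of the tested flanking genes 7 had both mid libraries above both early ones and 2 (SETD4 and SLC25A26) both below, where 31.5% and 30.9% of all tested genes did. RASA3, next to TBX1 and counted among the 7 and the 4, passed the filter through the mid libraries alone. Beside LHX2, DENND1A was at 9.13 and 8.40 in April and 12.6 and 12.5 in October, and NEK6 at 63.5 and 23.0 in April and 53.6 and 32.1 in October. Beside SOX9, SLC39A11 stayed between 17.7 and 19.1.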
